A study of Mus musculus with 6 samples.

Results

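The pyruvate dehydrogenase complex (PDC) and its regulators were examined in cultured mouse cells labelled as vascular smooth muscle. Vascular smooth muscle cells contract to set the width of arteries. The members were chosen by gene symbol, as 4 kinases (Pdk1, Pdk2, Pdk3 and Pdk4), 2 phosphatases (Pdp1 and Pdp2) and 4 subunits (Pdha1, Pdhb, Dlat and Pdhx), and all 10 were found among the 54532 genes of the table. PDC sits in the mitochondrial matrix and turns pyruvate from glycolysis into acetyl-CoA for the tricarboxylic acid cycle. Its kinases phosphorylate and switch off the E1 subunit, its phosphatases restore activity, and the balance between them sets how much pyruvate is oxidised rather than exported as lactate. In muscle, Pdk4 is best known as the kinase whose mRNA rises in fasting and when fatty acids are burned.

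The 6 RNA-seq libraries formed 2 groups of 3. The group Ad-Con carried an adenoviral vector with a control plasmid and a WT genotype label, and the group Ad-PDK4 carried an adenoviral vector with a PDK4 overexpression plasmid, which its genotype label also names. According to the study, the cells came from the abdominal aorta of young adult wild-type mice and both groups received angiotensin II, a peptide that raises blood pressure and is used to provoke aneurysm, after gene transfer. That treatment is absent from the labels, and the sources used here do not say how many mice gave the cells. The question was how PDK4 overexpression alters gene expression in these cells, and PDC is the enzyme complex on which PDK4 acts.

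Each library held 17588942 to 21861872 reads on genes, and 19650 to 20615 genes had a read. FPKM, the unit of the table, counts the fragments on each gene per unit of gene length and of library size, so that levels of different genes can be set side by side. The library size behind these values matched the median-of-ratios size in every library. That size is set from the median ratio of genes between libraries rather than from total reads. Of the labelled cell type's markers, Acta2 had a mean FPKM of 78.0 in Ad-Con and 36.2 in Ad-PDK4, whereas Myh11 had 2 to 10 reads, Myocd 0 to 5 and Tagln 4 to 20 in any library, so these defining markers were close to absent. The summed FPKM of the 7 smooth muscle markers was 86.8 to 88.4 in Ad-Con and 43.1 to 48.0 in Ad-PDK4, and the gap was that of Acta2, since Smtn, the next most abundant, had means of 8.32 and 8.44. That of 5 fibroblast markers was 1420 to 1530 and 758 to 847, led by Col1a1 and Col1a2, while Dcn was higher in Ad-PDK4 (90.1 and 161) and Pdgfra had 20.5 and 19.9. The sum of 6 macrophage markers was 15.0 to 17.9 and 5.91 to 7.44, which followed Cd68 (14.2 and 4.24). Lyz2 had 1.51 and 1.98, Csf1r 0.111 to 0.395 and 0.565 to 0.725, and Ptprc, Adgre1 and Itgam 3 reads or fewer throughout. The sum of 5 endothelial markers was 0.617 to 0.798 and 0.885 to 1.18 with Tek at 3 reads or fewer. Genes of the mitochondrial genome took 6.95% to 7.44% of summed FPKM in Ad-Con and 3.02% to 4.15% in Ad-PDK4. The part of these shifts in the results below was not tested, and in bulk RNA fewer cells of a type and less RNA per cell cannot be told apart.

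All 10 genes passed the filter on low values, a mean FPKM of at least 0.5. At a Benjamini-Hochberg adjusted p below 0.05, limma called 5 of the 10, where 42.7% of the 13423 genes tested were called. The 2 called higher in Ad-PDK4 were Pdk1 and Pdk3, against a background of 21.8% of all genes tested. The 3 called lower were Pdk2, Pdk4 and Pdhb, against 20.8%. Only Pdk2 also passed a fold change of at least 2, as did 6.63% of all genes tested. The 3 libraries of one group did not overlap the 3 of the other for 7 of the 10 genes, and for 54.3% of all genes tested. The shares of PDC genes called were thus near those of the table as a whole. Their median log2 fold change was -0.08, beside -0.003 for all genes tested, and their median absolute log2 fold change was 0.21, beside 0.25. All 4 kinases were among the 5 called genes.

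**Figure D1:**
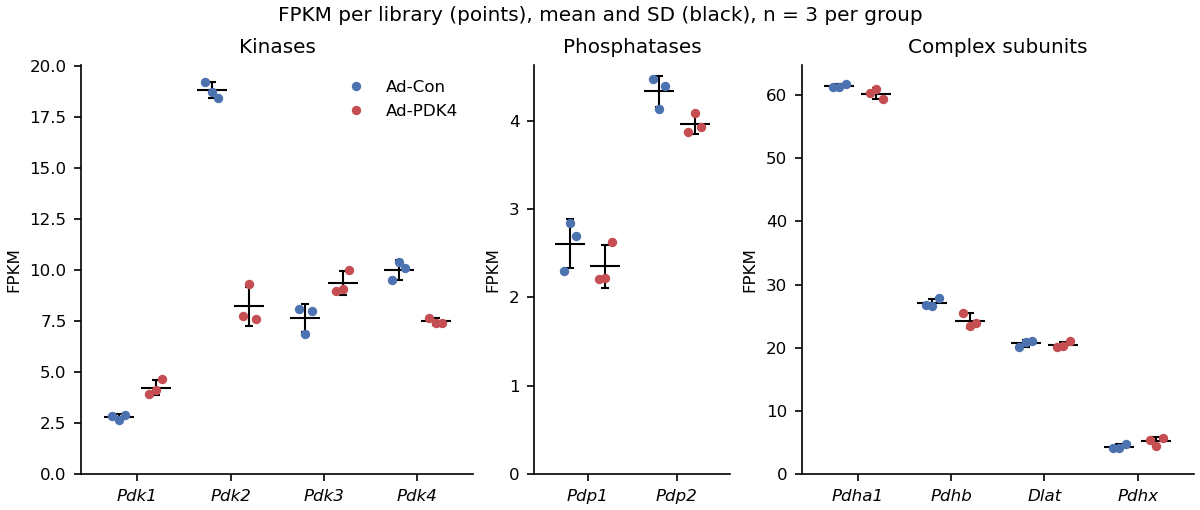
FPKM (vertical axes, linear, from 0 and scaled separately in each panel) of the 4 kinases, 2 phosphatases and 4 subunits. Points are the 3 libraries of Ad-Con (blue) and the 3 of Ad-PDK4 (red), black bars the mean and SD. Pdk2 shows the widest gap between the groups, and the points of Pdp1, Dlat and Pdhx overlap.

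The 4 kinase genes lie on separate chromosomes and differ in the sequence before their starts, which is shown because the kinases moved in opposite directions. The bases come from RefSeq promoters on GRCm38.p6, are written 5′ to 3′ on the gene's strand, and stop where the transcribed part of the gene begins in the table or in RefSeq, whichever lies further upstream. Capitals mark complete matches on either strand to any of 3 motifs. The first is the GC box, spelled GGGCGG, which zinc-finger factors of the Sp family are known to bind. Another is the CCAAT box, named for its letters and known for binding the factor NF-Y. The last is the core of the hypoxia response element, spelled ACGTG and known for binding HIF-1.
Pdk1, chr2:71872974-71873223, plus strand: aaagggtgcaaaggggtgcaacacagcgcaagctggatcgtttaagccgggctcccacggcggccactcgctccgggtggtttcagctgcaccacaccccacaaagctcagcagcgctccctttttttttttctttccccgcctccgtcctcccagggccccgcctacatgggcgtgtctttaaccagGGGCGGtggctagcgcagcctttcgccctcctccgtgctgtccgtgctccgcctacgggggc
Pdk2, chr11:95041372-95041621, minus strand: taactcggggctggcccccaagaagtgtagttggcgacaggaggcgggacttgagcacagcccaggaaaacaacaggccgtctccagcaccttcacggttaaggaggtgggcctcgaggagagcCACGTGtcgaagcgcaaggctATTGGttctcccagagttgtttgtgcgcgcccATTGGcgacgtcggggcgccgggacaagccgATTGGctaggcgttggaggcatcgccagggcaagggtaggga
Pdk3, chrX:93832202-93832400, minus strand: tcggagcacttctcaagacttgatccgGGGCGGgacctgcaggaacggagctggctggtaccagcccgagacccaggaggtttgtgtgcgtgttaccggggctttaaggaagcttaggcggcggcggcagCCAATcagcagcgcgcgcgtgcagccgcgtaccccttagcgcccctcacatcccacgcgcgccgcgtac
Pdk4, chr6:5496310-5496528, minus strand: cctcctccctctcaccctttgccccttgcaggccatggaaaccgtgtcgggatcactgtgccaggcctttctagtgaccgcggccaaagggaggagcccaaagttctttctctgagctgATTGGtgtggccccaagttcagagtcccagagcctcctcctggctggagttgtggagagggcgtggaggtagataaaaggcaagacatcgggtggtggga

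The 250 bases before the RefSeq start were searched for 9 of the 10 genes, all except Pdp1. The palindromic E-box CACGTG, which contains the hypoxia core on both strands, was found 126 bases before the start of Pdk2 and in the promoter of Pdp2, and in 6.02% of the 32851 promoters of the table. The hypoxia core itself was present in 4 of the 9, namely Pdk2, Pdk3, Pdp2 and Pdhb, and in 16.6% of all promoters. In Pdk3 it began 53 bases before the start and ran across the end of the sequence shown, so it is not in capitals there. It was not among the letters searched for Pdk1, Pdk4, Pdha1, Dlat and Pdhx.

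Pdk2 held 3 CCAAT boxes, at 105, 73 and 42 bases before its start, Pdk3 and Pdk4 held 1 each and Pdk1 none, while 33.8% of all promoters held at least 1. A GC box was found in 6 of the 9 genes, Pdk1 and Pdk3 among the kinases, and in 32.7% of all promoters. The bases searched held 58.8% to 68.4% G and C in the 9 genes, against a median of 52.4% over all promoters. The shares of all promoters given here are thus not matched for that content. No match to a FOXO site (GTAAACA) or an interferon-stimulated response element was found in any of the 9, and these were present in 3.17% and 2.98% of all promoters. Pdk4 stood at the low end in CpG content, with an observed to expected ratio of 0.278 against 0.476 to 1.02 in the other 8 genes and a median of 0.373 over all promoters. These matches describe letters only and carry no measure of binding.

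Pdk4, the kinase named by the overexpression label, was lower and not higher under that label. Pdk4 (ENSMUSG00000019577, chr6:5483351-5496309, minus strand, GRCm38) had 9.50, 10.4 and 10.1 FPKM in Ad-Con replicates 1 to 3 and 7.67, 7.40 and 7.38 FPKM in the libraries labelled Ad-PDK4. All 3 Ad-PDK4 libraries stood below all 3 Ad-Con libraries. The values rest on 642 to 679 reads per library in Ad-Con and 455 to 572 in Ad-PDK4, and the mean went from 10.0 ± 0.469 to 7.48 ± 0.162 FPKM (SD, n = 3 per group). The log2 fold change was -0.42 (SE 0.06, 95% interval -0.56 to -0.27, limma adjusted p = 0.0011), at percentile 15.8 of all genes tested. It stayed past the threshold in 16 of 16 alternative analyses, with values from -0.47 to -0.38. Among these, median-of-ratios rescaling in effect repeated the main fit, because the deposited FPKM already carried that scaling.

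The table counts the mouse gene, and reads from the plasmid insert may or may not be among them. Each direction is therefore that of Ad-PDK4 as labelled against Ad-Con, and no overexpression of Pdk4 was seen in these values. An exchange of the labels between groups, which would turn every direction, cannot be told apart from the labelling as given by the values of Pdk4. Of the longest Pdk4 transcript, 3.8% was shared with 9 other annotated genes, and no other gene's exons overlapped it. Among those 9 genes, the highest count in any library was 3608 reads.

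Pdk2, the most widely expressed kinase of the family, fell to 0.438 times its mean level in Ad-Con. It (ENSMUSG00000038967, chr11:95026258-95041354, minus strand) had 19.2, 18.7 and 18.4 FPKM in Ad-Con and 7.77, 9.32 and 7.60 FPKM in Ad-PDK4. The lowest Ad-Con library was well above the highest Ad-PDK4 library, and Ad-PDK4 replicate 2 was the highest of its group. The mean went from 18.8 ± 0.395 to 8.23 ± 0.95 FPKM (SD, n = 3), a log2 fold change of -1.19 (SE 0.08, 95% interval -1.38 to -0.99, limma adjusted p = 2.4e-05). That value lay at percentile 2.26 of all genes tested and ranged from -1.28 to -1.10 over 16 of 16 alternatives, all past the threshold. The interval corresponds to 0.385 to 0.502 times the Ad-Con level, so a fold of slightly under 2 was inside it.

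Pdk1 rose. This kinase, a known target of the hypoxia factor HIF-1 (ENSMUSG00000006494, chr2:71873224-71903858, plus strand), had 2.87, 2.65 and 2.90 FPKM in Ad-Con and 3.92, 4.13 and 4.66 FPKM in Ad-PDK4. Every Ad-PDK4 library was above every Ad-Con library, with Ad-PDK4 replicate 3 the highest. The mean went from 2.81 ± 0.137 to 4.24 ± 0.382 FPKM (SD, n = 3), a log2 fold change of 0.57 (SE 0.09, 95% interval 0.36 to 0.79, limma adjusted p = 0.0019) at percentile 90 of all genes tested. It was past the threshold in all 15 alternatives that kept the gene, at 0.46 to 0.63. The reads behind it were 362 to 455 per library in Ad-Con and 555 to 801 in Ad-PDK4.

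Pdk3 also rose, by a smaller step. Pdk3 (ENSMUSG00000035232, chrX:93764607-93832201, minus strand), a kinase known for its expression in testis, had 8.10, 6.87 and 8.01 FPKM in Ad-Con and 8.99, 9.08 and 10.0 FPKM in Ad-PDK4. The groups did not overlap, but Ad-Con replicate 2 stood apart below its group and Ad-PDK4 replicate 3 above its own. The mean went from 7.66 ± 0.684 to 9.37 ± 0.582 FPKM (SD, n = 3), a log2 fold change of 0.29 (SE 0.08, 95% interval 0.10 to 0.48, limma adjusted p = 0.025). The call was lost without Ad-Con replicate 2, at 0.21, and without Ad-PDK4 replicate 3, at 0.24, and also under quantile normalization, at 0.24, and with no filter on low values, at 0.29.

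**Figure D2:**
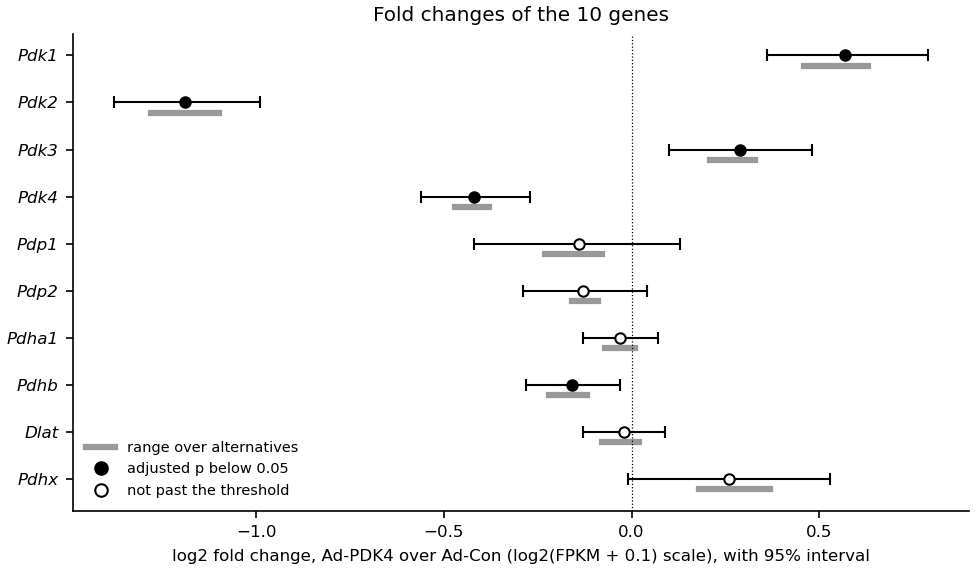
Log2 fold change of Ad-PDK4 over Ad-Con (horizontal axis, log2(FPKM + 0.1) scale) for the 10 genes. Circles with whiskers are the limma estimate and its 95% interval, filled where the adjusted p was below 0.05, and the grey bar below each is the range over the alternative analyses. Pdk2 lies furthest from 0, at -1.19, and the 2 phosphatases and Pdha1, Dlat and Pdhx are open circles.

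With the 4 kinases summed, kinase mRNA was lower in Ad-PDK4 and its makeup differed. The sum was 39.7, 38.7 and 39.5 FPKM in Ad-Con and 28.3, 29.9 and 29.7 FPKM in Ad-PDK4, without overlap. The means were 39.3 ± 0.526 and 29.3 ± 0.853 FPKM (SD, n = 3), a difference of -9.94 FPKM. Pdk2 made up 48.4%, 48.4% and 46.6% of the sum in Ad-Con and 27.4%, 31.1% and 25.6% in Ad-PDK4, a difference of -19.8 percentage points. Pdk4 by contrast made up 24.0%, 26.9% and 25.7% in Ad-Con and 27.1%, 24.7% and 24.9% in Ad-PDK4, so its groups overlapped. Both Pdk4 shares had a mean of 25.5%, with an SD of 1.5 in Ad-Con and 1.31 in Ad-PDK4.

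Pdk3 went from a mean share of 19.5% to 32.0% of kinase FPKM and Pdk1 from 7.15% to 14.4%. The ratio of Pdk1 to Pdk2 FPKM was 0.15, 0.142 and 0.158 in Ad-Con and 0.505, 0.443 and 0.613 in Ad-PDK4, again without overlap. By an exact two-sided permutation test over libraries, the kinase sum, the Pdk2 share and the Pdk1 to Pdk2 ratio each gave p = 0.1, the smallest that 20 arrangements of 3 against 3 allow, and the Pdk4 share gave p = 1. Adjusted over the 7 sums, shares and ratios tested, these were 0.117 and 1, so this test could not pass 0.05.

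**Figure D3:**
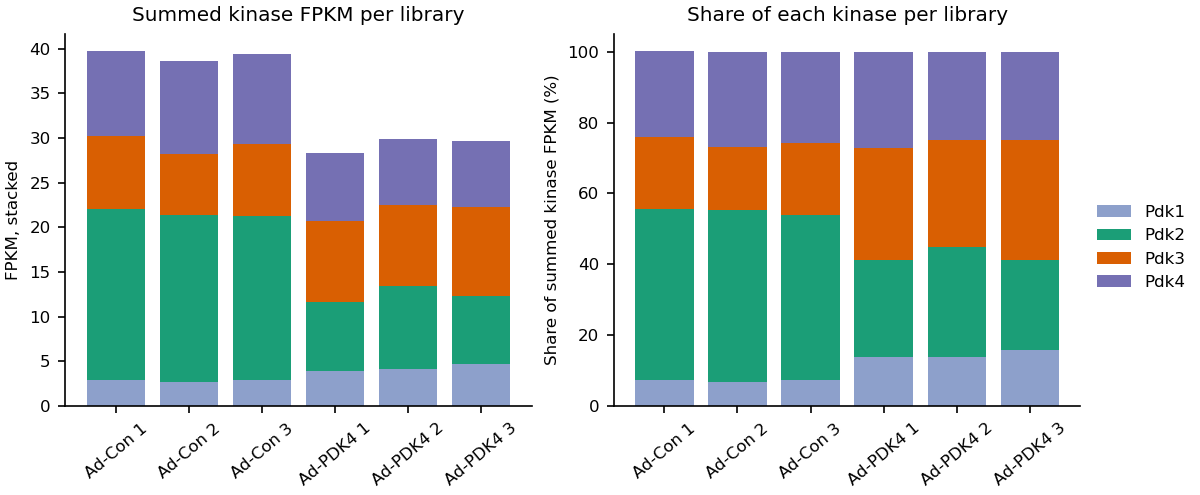
Stacked FPKM of the 4 kinases in each library (left, FPKM from 0) and the share of each kinase in that sum (right, percent). Each bar is 1 library. The green Pdk2 segment is shorter in all 3 Ad-PDK4 bars, while the Pdk4 share stays between 24.0% and 27.1% in all 6.

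Both phosphatases missed the threshold. Pdp1, the calcium-sensitive catalytic subunit found in muscle (ENSMUSG00000049225, chr4:11958184-11966452, minus strand), had 2.30, 2.84 and 2.69 FPKM in Ad-Con and 2.21, 2.22 and 2.63 FPKM in Ad-PDK4, and the groups overlapped. Its log2 fold change was -0.14 with a 95% interval of -0.42 to 0.13 (limma adjusted p = 0.37), equal to 0.746 to 1.10 times the control level, on 175 to 262 reads per library. Pdp2, the catalytic subunit known from liver and adipose tissue (ENSMUSG00000048371, chr8:104591451-104599026, plus strand), had 4.47, 4.13 and 4.39 FPKM in Ad-Con and 3.87, 4.09 and 3.93 FPKM in Ad-PDK4. All Ad-PDK4 values of Pdp2 lay below those of Ad-Con, by a narrow margin, and the log2 fold change was -0.13 (95% interval -0.29 to 0.04, limma adjusted p = 0.21).

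Summed phosphatase FPKM was 6.77, 6.98 and 7.08 in Ad-Con and 6.08, 6.30 and 6.56 in Ad-PDK4. The ratio of summed kinase to summed phosphatase FPKM was 5.86, 5.54 and 5.57 in Ad-Con and 4.66, 4.75 and 4.52 in Ad-PDK4. Neither overlapped between groups. The ratio differed by -1.01, from 5.66 ± 0.173 to 4.65 ± 0.114 (SD, n = 3, exact two-sided permutation p = 0.1, adjusted 0.117). Kinase mRNA thus exceeded phosphatase mRNA in every library. mRNA levels do not give enzyme activity or the phosphorylation state of E1, which were not analysed here.

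The subunit genes held much closer to their control levels than Pdk2. Pdha1, the E1 alpha subunit that carries the regulated phosphorylation sites (ENSMUSG00000031299, chrX:160122209-160138413, minus strand), had 61.3, 61.2 and 61.8 FPKM in Ad-Con and 60.3, 60.9 and 59.3 FPKM in Ad-PDK4. The groups just failed to overlap. The log2 fold change was -0.03 (95% interval -0.13 to 0.07, limma adjusted p = 0.61), equal to 0.916 to 1.05 times the control level, on 3983 to 4892 reads. The exons of Pdha1 overlap Map3k15 on the opposite strand over 603 bases, 16.1% of their length, and the sources used here do not say whether counting used strand. Map3k15 itself had at most 235 reads in any library.

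Pdhb, the E1 beta subunit (ENSMUSG00000021748, chr14:8165996-8173025, minus strand), was the 1 subunit that passed the test. It had 26.8, 26.6 and 27.8 FPKM in Ad-Con and 25.5, 23.4 and 23.9 FPKM in Ad-PDK4, without overlap. The log2 fold change was -0.16 (SE 0.05, 95% interval -0.28 to -0.03, limma adjusted p = 0.047). The call was lost in 9 of 16 alternatives, among them those without any 1 of the Ad-Con replicates 1 to 3 or of Ad-PDK4 replicates 2 and 3, where values ran from -0.19 to -0.13 over all replicates left out. A pseudogene, Gm6123, matched 4.9% of the longest Pdhb transcript and had at most 9 reads.

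Since both chains make up E1 in equal number, the ratio of Pdha1 to Pdhb FPKM was taken per library. It was 2.29, 2.30 and 2.22 in Ad-Con and 2.36, 2.61 and 2.48 in Ad-PDK4, a difference of 0.212 in the mean (exact two-sided permutation p = 0.1, adjusted 0.117). The lowest Ad-PDK4 ratio was slightly above the highest Ad-Con ratio.

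Dlat, the E2 acetyltransferase that forms the core of the complex (ENSMUSG00000000168, chr9:50634633-50659780, minus strand), had 20.1, 20.9 and 21.1 FPKM in Ad-Con and 20.1, 20.2 and 21 FPKM in Ad-PDK4, with overlap. Its log2 fold change of -0.02 had a 95% interval of -0.13 to 0.09 (limma adjusted p = 0.78), the value nearest 0 among the 10 genes. Pdhx, the E3-binding protein that anchors the E3 subunit to that core (ENSMUSG00000010914, chr2:103021075-103073513, minus strand), had 4.11, 4.12 and 4.76 FPKM in Ad-Con and 5.47, 4.42 and 5.78 FPKM in Ad-PDK4. The groups overlapped because Ad-PDK4 replicate 2 fell among the Ad-Con values. The log2 fold change of Pdhx was 0.26 (95% interval -0.01 to 0.53, limma adjusted p = 0.11), and without Ad-PDK4 replicate 2 it was 0.37 and past the threshold (adjusted p = 0.020).

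Within Ad-Con the order of mean FPKM ran Pdha1, Pdhb, Dlat, Pdk2, Pdk4, Pdk3, Pdp2, Pdhx, Pdk1 and Pdp1, from 61.4 to 2.61. The ranges of the 3 libraries were separate between neighbours except for Pdp2 against Pdhx and Pdk1 against Pdp1. Within Ad-PDK4, Pdha1, Pdhb and Dlat kept the top 3 places, followed by Pdk3, Pdk2 and Pdk4 with means of 9.37, 8.23 and 7.48 FPKM. In that group the range of Pdk2 overlapped those of Pdk3 and Pdk4, and Pdhx, Pdk1 and Pdp2 overlapped each next in that order, with Pdp1 last at 2.35.

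Levels set across genes rest on the length used, which for Pdk1 was 7779 bases over all annotated exons against 5185 in its longest transcript, and for Pdk4 3511 against 3484. With the longest transcript as the length, an alternative chosen after the data were seen, mean Pdk1 FPKM became 4.21 in Ad-Con and 6.36 in Ad-PDK4. Pdk2 was then the highest kinase in Ad-Con, at a mean of 26.4 FPKM against 10.1 for Pdk4 and 9.28 for Pdk3. In Ad-PDK4 the ranges of Pdk2 (10.7 to 13.1) and Pdk3 (10.9 to 12.2) overlapped. The Pdk4 share became 20.2% in Ad-Con and 20.5% in Ad-PDK4, and the Pdk2 share 52.8% and 31.4%. The fold change of a gene between groups does not depend on its length.

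The levels of Pdk2 across the 6 libraries were most like those of Col1a1 (Pearson r = 0.9995 on the log2 scale), Dnm1 (0.9994) and Sash1 (0.9989), with 7730 genes above a minimum mean FPKM of 5 compared. Col1a1, which encodes a chain of type I collagen, went from a mean of 1060 to 435 FPKM. For Pdk4 the nearest were Iah1 (0.9973), Parn (0.9971) and Eif3l (0.9964). As many as 133 genes exceeded 0.99 with Pdk2 and 35 with Pdk4. The 6 libraries fall into 2 groups, so such values mainly reflect the shared difference between groups and are given as a description.

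Of 63 further genes around PDC, in 5 lists, 56 passed the filter, of which 13 were called higher and 19 lower and 24 were not called. Their median log2 fold change was 0.02. The share of these genes called higher was near the 21.8% of all genes tested, and the share called lower was above the 20.8%. The lists were chosen with earlier results of these data known, so nothing particular to the lists is read from these counts.

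Among 10 tested genes that complete, supply or lipoylate PDC, 3 were higher and 2 lower (median log2 fold change 0.08). Dld, the E3 subunit that PDC shares with related complexes, had 27.1, 24.7 and 26.1 FPKM in Ad-Con and 27.4, 23.8 and 31.7 FPKM in Ad-PDK4, with overlap and a log2 fold change of 0.08 (95% interval -0.15 to 0.31). Pdpr, the regulatory subunit of the PDC phosphatase, had -0.14 (95% interval -0.29 to 0.02). Both subunits of the mitochondrial pyruvate carrier fell, Mpc1 by 0.39 and Mpc2 by 0.24 on the log2 scale (limma adjusted p = 0.031 and 0.026). Lipt1, a lipoyl transferase, rose by 0.44 (limma adjusted p = 0.020). The calls of Mpc1, Mpc2 and Lipt1 were lost in 6, 7 and 3 alternatives.

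Of 10 genes of the related 2-oxoacid dehydrogenases and their regulators, 1 was higher and 5 lower (median -0.16). Dbt, the E2 subunit of the branched-chain complex, rose by 0.46. Ogdhl, a relative of the 2-oxoglutarate dehydrogenase E1, fell by 0.79, from a mean of 37.2 to 21.5 FPKM, Dhtkd1, the 2-oxoadipate dehydrogenase E1, by 0.62, and Gcsh, the lipoylated protein of glycine cleavage, by 0.52. Lower calls were also made for Bckdk and Bckdhb.

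Of 12 tested genes that make, use or carry pyruvate and lactate, 4 were higher and 5 lower (median -0.01). Ldha, the lactate dehydrogenase chain that favours lactate, had 70.8, 67.6 and 74.8 FPKM in Ad-Con and 96.3, 107 and 97.0 FPKM in Ad-PDK4. It did not overlap between groups and rose by 0.49 (limma adjusted p = 0.00047), while Ldhb, the other chain, fell by 0.46, from a mean of 44.8 to 32.6 FPKM. The lactate exporter Slc16a3 rose by 1.11, though its level was low, at 0.437 and 1.06 FPKM, and Pcx, the pyruvate carboxylase that competes with PDC for pyruvate, rose by 0.63, from 9.03 to 14.1 FPKM. Gpt, an alanine aminotransferase, fell by 0.57 and Me2, a mitochondrial malic enzyme, by 0.40.

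Of 11 tested transcription factors and coactivators known to act on Pdk genes, 3 were higher and 3 lower (median 0.02). Hif1a, the oxygen-sensitive factor known to induce Pdk1, had 22.4, 19.3 and 20.6 FPKM in Ad-Con and 30.4, 29.6 and 39.5 FPKM in Ad-PDK4. Its groups did not overlap and it rose by 0.66 (95% interval 0.39 to 0.93, limma adjusted p = 0.0029). Ppargc1a, a coactivator known to induce Pdk4 in muscle, had 1.62, 1.45 and 1.90 FPKM in Ad-Con and 0.925, 0.745 and 0.817 FPKM in Ad-PDK4. It fell by 0.91 (limma adjusted p = 0.0030).

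Pparg fell by 0.45 and Foxo4 by 0.29, while Ppard rose by 0.25 and Nr3c1, the glucocorticoid receptor, by 0.21, and the last 2 calls were each lost in 8 alternatives. Of 13 tested targets of PPAR and FOXO factors, 2 were higher and 4 lower (median 0.03). Angptl4 and Klf15 rose by 0.66 and 0.56, and Sesn1, Txnip and Acadm fell by 1.38, 0.58 and 0.52. The list thus held genes of both directions, and Cpt1a, the rate-limiting enzyme of fatty acid import, was at 0.03 (95% interval -0.07 to 0.14).

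**Figure D4:**
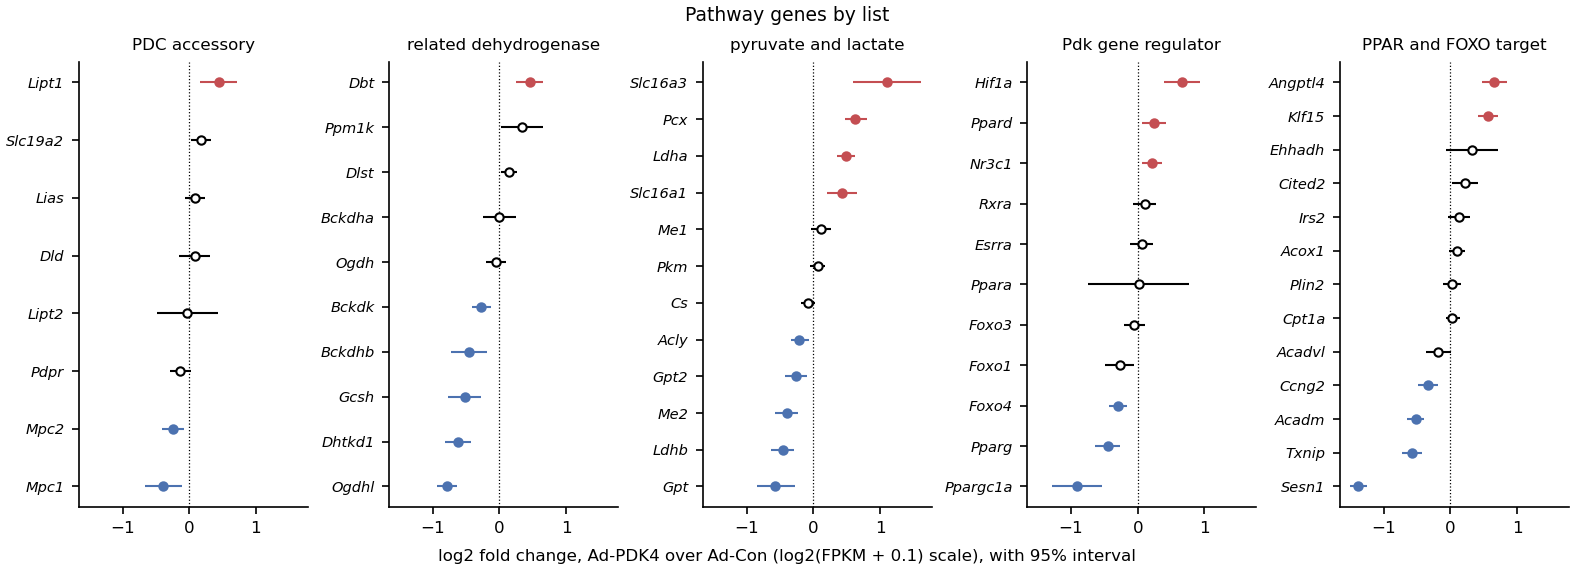
Log2 fold change of Ad-PDK4 over Ad-Con (horizontal axis, log2(FPKM + 0.1) scale) for 54 of the 56 tested genes around PDC, in 5 lists. Circles are limma estimates with 95% intervals, red where called higher, blue where called lower and open where the adjusted p was not below 0.05. Every list holds genes of both directions, from Slc16a3 at 1.11 to Sesn1 at -1.38.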

How the data were processed

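RNA was sequenced as paired-end reads from 6 libraries, 3 labelled Ad-Con and 3 Ad-PDK4. The study describes each group as biological replicates, without saying whether these were separate cultures or animals, so p-values measure the spread between these libraries. The submitters' processing notes name CASAVA 1.8, fastp, HISAT2 2.0.5, featureCounts 1.5.0-p3, DESeq2 1.20.0 and build GRCm39. The authors deposited 1 FPKM value per gene and library, with coordinates that were those of GRCm38 (98.3% of the 54495 identifiers matched to GENCODE release 21). FPKM times gene length gave whole reads for 100% of non-zero values, within 0.01 reads.

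The authors tested counts with DESeq2, which was not run here. Since the deposited unit was FPKM, a test on recovered reads was kept as an alternative (limma-voom), and log2(FPKM + 0.1) was tested with limma 3.58.1 in R 4.3.3 (trend and robust moderation, no covariates) over the 13423 genes that reached a mean FPKM of 0.5, with Benjamini-Hochberg adjustment over all of them. The pseudocount makes fold changes of low genes an understatement. Reads were also simulated over 13423 genes, of which 200 were changed, with the same variability beyond counting noise set for every gene. There 29 of 50 genes changed by 1.5-fold and 49 of 50 by 2-fold were called. In the data 42.7% of the genes tested were called, so these simulated shares do not give the sensitivity of the real comparison. Sums and ratios were tested by exact two-sided permutation, also in R. No 2 libraries agreed within sampling noise. Shared sequence was found with BLAST+ 2.17.0, as matches of at least 95% identity over 100 bases.

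The members and gene lists were chosen with earlier results of these data known. Named were all 10 genes, the 3 largest called rises and falls of each list, Dld, Pdpr, Mpc1, Mpc2, Hif1a, Ppargc1a and Ldha, and the 3 genes most correlated with Pdk4 and with Pdk2. Bckdk, Bckdhb, Cpt1a and the marker genes were named after their values were seen, and 2 genes of the lists are not reported here. The listed gene Pc was found as Pcx. Alternatives were other pseudocounts, filters, scalings and moderation, a replicate block, limma-voom on recovered reads and leaving out each replicate.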

Additional observations from a re-analysis of the deposited data

How the results depend on the processing

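The calls of Pdk2 and Pdk4 held in all 16 alternatives run and that of Pdk1 in all 15 that kept it, whereas those of Pdk3 and Pdhb held in 12 and 7 of 16. Each of these counts includes median-of-ratios rescaling, which in effect repeated the main fit and so adds no support. The number of PDC genes called higher, 2, became 1 with no filter on low values and under quantile normalization, where Pdk3 lost its call. With a minimum mean FPKM of 5 it was also 1, but there Pdk1 was removed by the filter and not tested. Over the replicates left out the number ran from 1 to 3. The number called lower, 3, ran from 2 to 3 over all alternatives. Under TPM rescaling, which moved the median of all genes tested to 0.037, Pdha1 and Dlat turned to 0.01 and 0.02 on the log2 scale, and without Ad-PDK4 replicate 3 Dld turned to -0.02 (-0.02 to 0.18 over the replicates left out). None of these 3 was past the threshold. The difference in the Pdk4 share of kinase FPKM, 0.00885 percentage points, turned to -1.8 with the recovered reads, scaled by library size alone, in place of FPKM, and ran from -0.78 to 0.707 over the replicates left out. A share within a library does not depend on library size, so the reads differed from FPKM here only in having no length scaling. The cause of the spread over the replicates left out was not tested. Those reads, without length scaling, also moved the differences in the kinase to phosphatase ratio and the Pdk1 to Pdk2 ratio to -0.439 and 0.912, each in the same direction. With the longest transcript as the length, the 7 sums, shares and ratios kept their directions.

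Same-numbered libraries of the 2 groups did not deviate together (correlations of -0.046, -0.031 and -0.001). The numbers thus showed no sign of pairing, though such correlations over many genes cannot exclude it. A replicate block gave 2 PDC genes called higher and 2 called lower, since Pdhb at -0.16 had an adjusted p of 0.067, and among all genes 2759 called higher and 2626 lower. On the recovered reads, limma-voom called 3267 genes higher and 3092 lower. Pdp1 rested on the fewest reads of the 10 genes, 175 to 262 per library.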
